A study of Mus musculus with 2 samples.

Results

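Notch ligands, receptors and targets were examined as 10 genes, taken by symbol from the gene list shared by both libraries. All 10 were found among 27998 genes: the ligands Jag1 and Jag2, the receptors Notch1, Notch2 and Notch3, the target genes Hes1, Hey1 and Hey2, the glycosyltransferase Lfng and the nuclear effector Rbpj. The data were 10x 3′ single-cell RNA counts from the ovaries of E15.5 mouse embryos. They formed 2 libraries, a wild type (WT) library of 4 pooled female embryos and a knockout (KO) library of 2 pooled female embryos. Both carried the Tg(Pou5f1-EGFP)2Mnn transgene, which marks germ cells green, and GFP-positive germ cells had been mixed back with GFP-negative somatic cells at 60% to 40%. KO embryos were homozygous for a deletion of exon 3 of Nr3c1, which encodes the glucocorticoid receptor (GR). The deleted allele came from the floxed Nr3c1tm1.1Jda line and a β-actin Cre, Tmem163Tg(ACTB-cre)2Mrt, so that every cell lacked the exon, germ and soma alike. Since each genotype was 1 library of pooled embryos, no difference between WT and KO had a replicate check, genotype and library cannot be told apart, and no test across samples was made.

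Notch signaling passes between touching cells. A Delta or Jagged ligand on one cell pulls on a NOTCH receptor of its neighbour, the receptor is cut inside the membrane, and the freed intracellular part joins the DNA-binding protein RBPJ and a mastermind cofactor to switch on genes of the Hes and Hey families, which encode repressors. In the mouse ovary around birth, Jagged ligands of oocytes and the NOTCH2 receptor of pregranulosa cells are known for their part in the breakdown of germ cell cysts and the assembly of primordial follicles.

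RBPJ recognises the letters TGGGAA, most strongly as GTGGGAA. RBPJ letters were sought on both strands in the 250 bases upstream of each gene's start, with RefSeq promoters of build GRCm38.p6. Of the 10 genes, 8 had a promoter entry there, Hes1 and Hey1 having none. The longer letters were found upstream of Hey2 and Lfng, and the shorter ones also upstream of Rbpj and at a further place upstream of Lfng. Over all 32851 promoters, 5.42% held GTGGGAA and 21.6% held TGGGAA, which lies inside it. The stretches below show the longer letters in the member promoters and in Hes5, 1 of 4 pathway genes that held them. Of these 4, Hes5 was the further target gene over 2-fold higher in germ-like than in granulosa-like cells in both libraries, from few granulosa counts. Hes7, another of the 4, was over 2-fold higher in WT alone. The capitals mark the letters on either strand, and a match is a description of sequence, not a site in use.
Hey2, chr10:30842974-30843000, minus strand: cgcggtggcaTTCCCACgcctctgcca
Lfng, chr5:140607222-140607248, plus strand: cgtatcccacGTGGGAAggagagatct
Hes5, chr4:154960687-154960713, plus strand: ggcgagcgcgTTCCCACagcccggaca
Hes5, chr4:154960830-154960856, plus strand: gccgccgagtGTGGGAAcggccgcggc

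On GRCm38, the genes that mark the main distributions are protein coding and lie on separate chromosomes: Jag2 at chr12:112907819-112929776 on the minus strand, Notch2 at chr3:98013527-98150361 on the plus strand and Hes1 at chr16:30064384-30067796 on the plus strand. Notch3 overlaps the counted gene Gm17276 on the opposite strand, and Rbpj overlaps Gm10441 and Gm40304.

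After the limits on cells given in the processing account, 9045 WT and 15502 KO cells remained, with a median of 15685 and 10194.5 UMIs (unique molecular identifiers, each a counted transcript). Of their cell barcodes, 27 occurred in both libraries. Nr3c1 stood at 63.9 CPM (95% counting interval 62.7 to 65.2) in WT cells and at 10.6 (10.1 to 11.1) in KO cells, although 3′ counts lie outside the deleted exon. Cells were clustered without the 10 genes and without 40 further Notch pathway genes, and were named from marker lists: 6715 WT and 10074 KO germ-like cells, 844 and 1763 granulosa-like cells, 726 and 1548 theca-like cells and 334 and 904 epithelia-like cells. Smaller groups were endothelia-like (30 and 136), perivascular-like (19 and 58), immune-like (27 and 44) and erythroid-like (13 and 53). Of the 8 markers of each class, 7 or 8 were highest in that class in both libraries. Clusters holding both germ and somatic markers (268 and 797 cells) were left out. Free RNA was measured with the marker genes: germ markers stood at a median of 2.51% of their germ level in WT granulosa-like cells, 3.80% in the theca class and 1.58% in the epithelia class, and at 3.11%, 4.77% and 2.93% in KO. Germ markers reached 23.3% in the KO endothelia-like cells but 1.93% in the WT ones. In WT and KO their medians were 44.8% and 55.2% in erythroid-like, 2.12% and 17.0% in immune-like and 4.32% and 8.33% in perivascular-like cells. Levels are given as CPM, the UMIs of a gene for every 1000000 UMIs of its class, each transcript being counted once at its 3′ end whatever its length, and intervals cover counting error only.

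**Figure D1:**
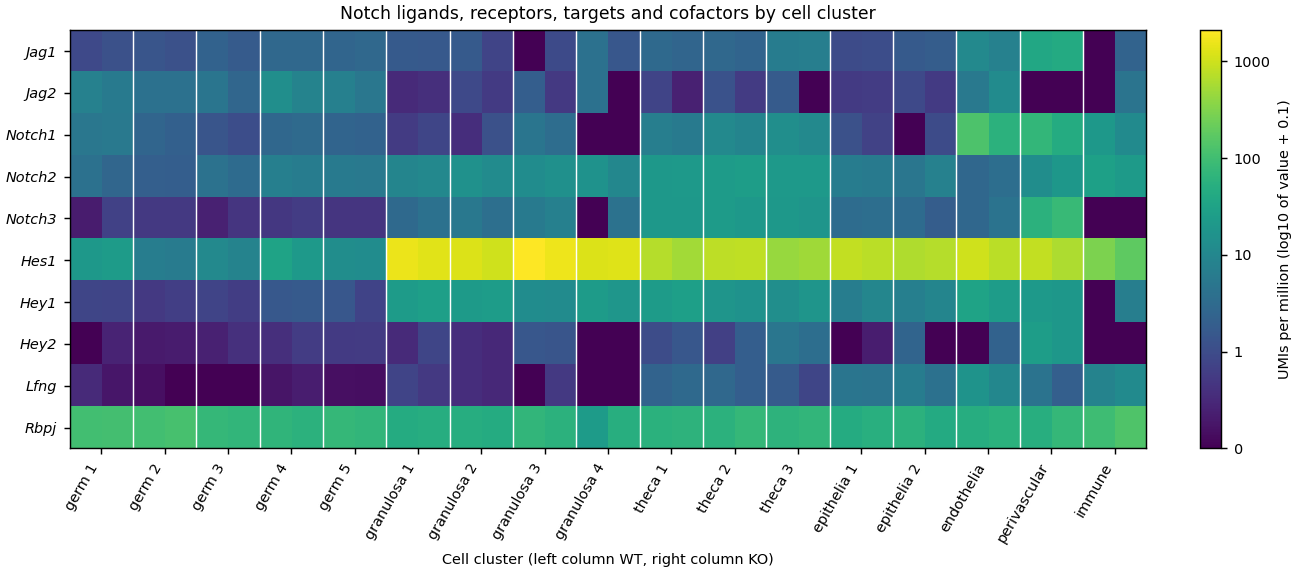
Level of each of the 10 genes (rows) in every named cell cluster (columns, WT on the left and KO on the right of each pair), as CPM on a log10 colour scale after adding 0.1. Among the large classes Jag2 is brightest in germ clusters and Rbpj in germ 1 and 2, and Hes1 and Hey1 in somatic clusters. Of the small classes, the endothelia and perivascular clusters are bright for Notch1 and Jag1, and the perivascular cluster alone for Notch3 and Hey2.

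Jag2, which encodes a Jagged ligand, was the ligand of this set that marked germ cells. Its germ level was 8.61 CPM (95% interval 8.09 to 9.15) in WT and 5.35 CPM (4.94 to 5.78) in KO. In granulosa-like cells it was at 0.854 in WT and 0.337 in KO, in theca-like cells at 0.933 and 0.197, and in epithelia-like cells at 0.511 and 0.472. Germ-like cells therefore held 94.5% of all Jag2 UMIs of the WT library and 87.8% of those of the KO library, shares that also follow the sorted mix of cells. The germ level was 10.1-fold the granulosa level in WT (log2 3.33, 2.40 to 4.47) and 15.9-fold in KO (log2 3.99, 2.76 to 5.61). Jag2 counts in these somatic classes were few, between 2 and 9 UMIs per class and library. They amounted to 3.69% to 10.8% of the germ level, set against medians of 1.58% to 4.77% for germ markers in the same classes.

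A Jag2 UMI was seen in 13.3% of WT germ-like cells (95% Clopper-Pearson interval 12.5 to 14.1) and in 6.04% of KO germ-like cells (5.58 to 6.52), at median depths of 17057 and 11288.5 UMIs. In granulosa-like cells, with 12364.5 and 8206 UMIs, the shares were 0.948% and 0.284%. With every cell thinned to 3000 UMIs, which left out no cell, 2.62% of WT and 1.69% of KO germ-like cells held a Jag2 UMI. Outside the germ line the level was highest in endothelia-like cells, at 12.2 (7.11 to 19.5) in KO from 17 UMIs and at 5.39 (0.653 to 19.5) in WT from 2 UMIs. The KO endothelial value was above the KO germ value beyond counting error (log2 1.19, 0.40 to 1.88), whereas in WT the order of the 2 classes could not be read. No Jag2 UMI was found in 19 WT and 58 KO perivascular-like cells, which allows a level of up to 12.9 and 5.72 CPM by a floor of 3 counts per library.

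Jag1, the other Jagged ligand, had a different distribution. It was highest in perivascular-like cells, at 38.6 (17.6 to 73.2) in WT and 43.9 (27.8 to 65.8) in KO, followed by endothelia-like cells at 10.8 and 7.90. Germ-like cells stood at 2.23 (1.97 to 2.51) and 2.10 (1.85 to 2.38), and theca-like cells at 3.47 and 3.06. Granulosa-like cells, at 1.33 and 1.15, and epithelia-like cells, at 1.02 and 1.13, were the lowest of the large classes and did not differ beyond counting error. Germ-like cells exceeded both beyond counting error in KO alone. In WT the log2 was 0.75 (-0.02 to 1.64) over granulosa, from 14 granulosa UMIs, and 1.13 (-0.02 to 2.58) over epithelia, from 6 epithelia UMIs. Within the theca class the cluster led by Lum, Cxcl12 and Pdlim3 (theca 3) held 6.46 in WT and 7.01 in KO, against 2.87 and 2.41 in the other theca clusters. That difference passed its counting interval in KO (log2 1.54, 0.29 to 2.69) but not in WT (log2 1.17, -0.24 to 2.44). Theca-like and germ-like cells could not be told apart by their Jag1 level in either library, with a log2 of germ over theca of -0.64 (-1.22 to 0.00) in WT and -0.54 (-1.08 to 0.05) in KO.

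**Figure D2:**
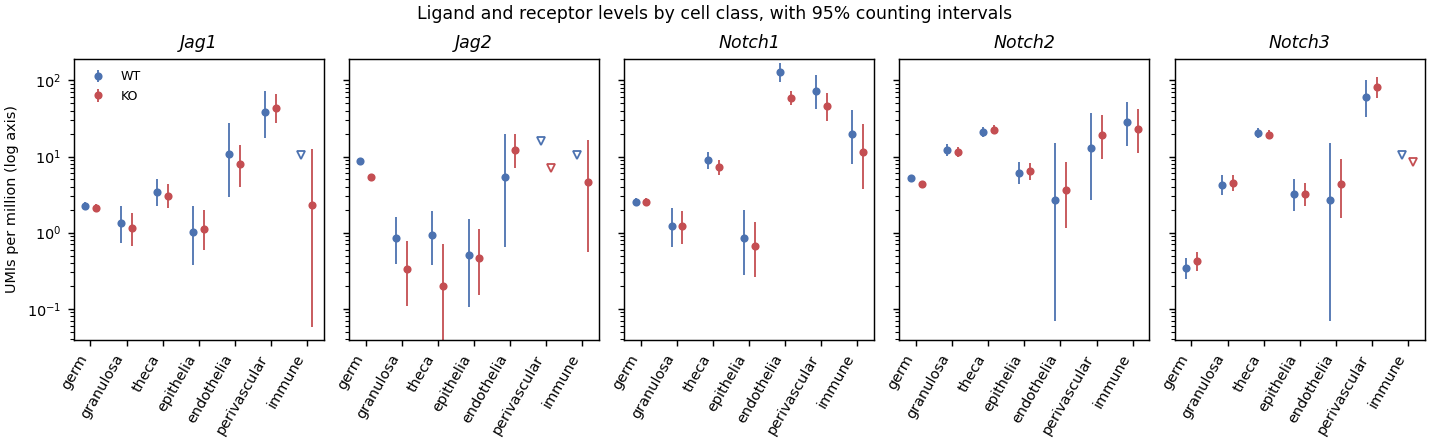
CPM of both ligands and the 3 receptors by cell class on a shared log axis, with WT in blue and KO in red. Points carry 95% counting intervals, and open triangles mark the upper bound where no UMI was counted. Jag2 is the panel in which germ cells stand above granulosa, theca and epithelia, while all 3 receptors have theca above granulosa.

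Of the receptors, Notch2 was the one with the most UMIs and was found in every class of both libraries. In WT endothelia-like cells and in the erythroid-like cells of each library this rested on 1 UMI. Its level was highest in theca-like cells among the large classes, at 21.2 (18.03 to 24.75) in WT and 22.5 (19.7 to 25.6) in KO. Granulosa-like cells followed at 12.1 (10.1 to 14.4) and 11.47 (9.81 to 13.3), then epithelia-like cells at 6.13 and 6.42 and germ-like cells at 5.26 and 4.32. Immune-like cells, at 28.3 and 22.9 from 10 UMIs each, could not be told from theca-like cells. The granulosa level exceeded the epithelia level beyond counting error in both libraries (log2 0.99 in WT and 0.84 in KO). Germ-like cells stood at 43.3% of the WT granulosa level and 37.7% of the KO one, far above the medians of 0.541% and 0.606% at which granulosa markers were found in germ-like cells.

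Notch3 was a receptor of the stroma and of perivascular cells. It stood at 60.0 (32.8 to 101) and 82.0 (59.3 to 110) in WT and KO perivascular-like cells and at 20.5 (17.4 to 24.0) and 19.4 (16.8 to 22.3) in theca-like cells. Granulosa-like cells were lower, at 4.27 and 4.52, and epithelia-like cells were at 3.24 and 3.21. Theca exceeded granulosa by a log2 of 2.27 (1.78 to 2.78) in WT and 2.10 (1.70 to 2.53) in KO. In germ-like cells Notch3 was at 0.345 in WT and 0.425 in KO, 1.68% and 2.19% of the theca level. Theca markers in germ-like cells stood at a median of 0.298% of their theca level in WT and 0.384% in KO, and 6 of 7 markers were below Notch3 in each library, Nr2f2 being above it at 2.68% and 2.27%.

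Notch1 was a receptor of both vascular classes, with endothelia-like cells at 129 (95.4 to 172) in WT and 58.9 (46.8 to 73.1) in KO. Perivascular-like cells held 72.8 and 45.8. Endothelia exceeded perivascular narrowly beyond counting error in WT (log2 0.83, 0.01 to 1.72) but not in KO (log2 0.36, -0.31 to 1.08). Theca-like cells held 8.93 (6.92 to 11.3) and 7.20 (5.65 to 9.06). Germ-like cells stood at 2.56 (2.28 to 2.86) and 2.52 (2.24 to 2.82), above granulosa-like cells at 1.23 and 1.21 by a log2 of 1.05 in both libraries. Granulosa-like cells were not uniform. The cluster led by Ramp1, Spink4 and Gstm6 (granulosa 3) held 4.69 in WT and 3.39 in KO from 10 and 8 UMIs, while the larger clusters granulosa 1 and 2, both with Calb1 and Gng13 among their leading genes, held between 0.267 and 1.09. The lower endothelial value in KO (log2 -1.14, -1.67 to -0.59) came with the germ marker share of 23.3% given above, and the part of that share in the difference was not tested.

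Hes1, the target gene with the most UMIs, was a somatic transcript. Granulosa-like cells held 1550.1 (1526 to 1574) in WT and 1293 (1275 to 1311) in KO, endothelia-like cells 1011 and 747, epithelia-like cells 789 and 739, and theca-like cells 666 and 581. Germ-like cells held 18.7 and 13.4, a log2 of -6.37 (-6.44 to -6.31) against granulosa-like cells in WT and of -6.59 (-6.66 to -6.52) in KO. These germ levels are 1.21% and 1.04% of the granulosa level, where granulosa markers in germ-like cells had medians of 0.541% in WT and 0.606% in KO, with 6 of 7 markers below Hes1 in WT and 5 of 7 in KO. Against the epithelia level the germ level was 2.37% and 1.82%, and 5 of 5 and 4 of 5 epithelia markers were below it. Each of these comparisons takes 1 somatic class, whereas free Hes1 RNA can come from all of them at once. They therefore cannot tell the germ level from free RNA, and the part of free RNA in it was not tested. A Hes1 UMI was counted in 98.3% of WT and 97.9% of KO granulosa-like cells but in 21.8% and 13.2% of germ-like cells. After thinning to 3000 UMIs the shares were 91.9% and 91.2% against 4.87% and 3.87%. Within granulosa-like cells granulosa 3 stood highest, at 2091 and 1647, against 1418 and 1222 in granulosa 1 and 2 together (log2 0.56 in WT and 0.43 in KO).

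Hey1 shared the somatic distribution at lower counts. Granulosa-like cells held 20.96 (18.3 to 23.9) in WT and 23.7 (21.3 to 26.3) in KO, theca-like cells 20.5 and 23.4, epithelia-like cells 6.81 and 9.34, and germ-like cells 1.13 and 0.801. Granulosa-like and theca-like cells did not differ beyond counting error in either library, and the epithelia level was below the theca level (log2 1.59, 1.08 to 2.13, for theca over epithelia in WT), the KO intervals not overlapping. Granulosa 3 ran against Hes1 here, with Hey1 at 12.7 and 11.9 against 23.0 and 26.5 in granulosa 1 and 2 (log2 -0.86, -1.50 to -0.28, in WT and -1.15, -1.77 to -0.59, in KO). Hey2 was rare, with 153 UMIs in all kept cells. Perivascular-like cells held 25.7 (9.43 to 56.0) and 19.1 (9.14 to 35.1), theca-like cells 1.47 and 1.78, and germ-like cells 0.269 and 0.342.

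Lfng, whose product adds sugars to NOTCH receptors and so alters which ligands they answer, was counted 195 times. Epithelia-like cells held 5.11 (3.45 to 7.29) in WT and 4.34 (3.18 to 5.79) in KO, theca-like cells 2.27 and 2.37, granulosa-like cells 0.379 and 0.337, and endothelia-like cells 16.2 and 10.1. Germ-like cells were at 0.0673 and 0.0500, which is 1.32% and 1.15% of the epithelia level, where epithelia markers had medians of 0.201% and 0.376%. Theca exceeded granulosa beyond counting error in WT (log2 2.58, 0.96 to 4.61). Lfng was thus low in the class with the highest Hes1 level.

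Rbpj, the DNA-binding effector shared by all NOTCH receptors, was counted in every class. Germ-like cells held 79.0 (77.4 to 80.6) in WT and 81.1 (79.5 to 82.7) in KO, above theca-like cells at 58.8 and 66.6, granulosa-like cells at 50.8 and 50.3 and epithelia-like cells at 48.4 and 50.9. Immune-like cells were higher still in KO, at 137 (105 to 177), but at 93.4 (64.3 to 131) in WT they could not be told from germ-like cells. Germ over granulosa was a log2 of 0.64 in WT and 0.69 in KO. The class with the least Hes1 therefore had more Rbpj than each large somatic class.

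Germ-like cells were set against each large somatic class over genes with at least 100 UMIs in the 2 classes together, with 2-fold as the limit. Hey2 and Lfng fell short of that minimum in all 6 comparisons and Notch3 in 3. Against granulosa-like cells 5 of 7 genes in WT passed 2-fold, where 61.1% of all genes did, and in KO 6 of 8, where 62.1% did. Against theca-like cells 6 of 8 genes passed in each library, beside 59.9% of all genes in WT and 60.5% in KO. Against epithelia-like cells 5 of 7 passed in WT and 4 of 7 in KO, beside 60.4% of all genes in each. Jag2 was higher in germ cells in all 6 comparisons, and Hes1 and Hey1 were lower in all 6. Notch2 was over 2-fold lower in germ cells than in granulosa-like and theca-like cells, but against epithelia-like cells its log2 was -0.22 in WT and -0.57 in KO. Notch1 was higher in germ cells than in granulosa-like and epithelia-like cells and lower than in theca-like cells, and Jag1 passed the limit against WT epithelia-like cells alone, with an interval that included 0 (log2 1.13, -0.02 to 2.58).

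**Figure D3:**
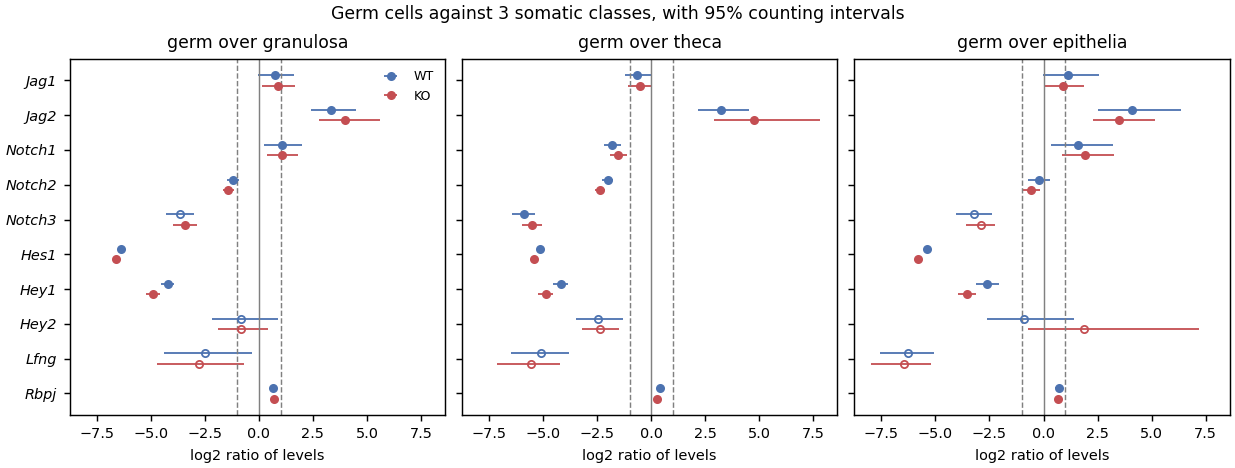
Log2 ratio of the germ level over that of 3 somatic classes for each gene, WT in blue and KO in red, with 95% counting intervals and dashed lines at 2-fold. Filled points have at least 100 UMIs. Jag2 lies to the right in all 3 panels and Hes1 and Hey1 to the left.

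Germ-like cells fell into 5 clusters, numbered by falling Stra8, the gene that marks entry into meiosis, over both libraries together. In WT alone, germ 3 (70.0 CPM) lay below germ 4 (112 CPM). Germ 1 (410 WT and 789 KO cells) carried Utf1, Sox2, Dppa5a, Rhox6 and Rhox9 and can be called premeiotic germ-like, though Stra8, Zglp1, Rec8 and Gata2 of the meiotic entry list were raised there too. The others had fewer than 3 markers of any stage list and are named by leading genes: germ 2 by Kcnq1ot1 and Stra8, germ 3 by Nacad and Mlf1, germ 4 by Sohlh1, Myom3 and Id1, and germ 5 by Mir17hg and Slc39a10. The clusters divide a continuum, so their levels are averages over ranges.

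Jag2 was highest in germ 4, at 13.3 in WT and 8.61 in KO. It was at 7.63 and 5.08 in germ 5, at 7.69 and 5.69 in germ 1, at 4.64 and 2.59 in germ 3 and at 4.06 and 3.97 in germ 2. Germ 4 exceeded germ 5 beyond counting error in both libraries (log2 0.80, 0.59 to 1.01, and 0.76, 0.48 to 1.04). Jag1 was also at its highest in germ 4, at 2.83 in each library, though not beyond counting error over germ 5, and low in germ 1 (0.803 and 1.07) and germ 2 (1.30 and 1.06). Notch2 was highest in germ 4 too, at 7.15 and 6.35, and lowest in germ 2, at 1.92 and 1.85. Notch1 did not: it was highest in the premeiotic germ-like cluster, at 5.16 and 5.53, and lowest in germ 3, at 1.27 and 0.963 (log2 2.02 in WT and 2.52 in KO).

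Rbpj stood at 104 and 108 in germ 1 and at 104 and 113 in germ 2. It was lower in germ 3, at 74.8 and 70.4, and in germ 5, at 75.1 and 69.6, and lowest in germ 4, at 66.5 and 59.4. Hes1 was lowest in germ 2, at 6.71 and 6.05, and higher in germ 1 (19.7 and 23.2) and germ 4 (32.6 and 21.02). In WT germ 4, Hes1 reached 2.10% of the granulosa level, above the 7 granulosa markers in the same cells, whose highest was 1.67% and median 0.542%. In KO germ 4, it reached 1.63% with markers up to 1.39%. In germ 2 the Hes1 share was 0.433% and 0.468%, below the marker medians of 0.502% and 0.483%. Against the theca level, Hes1 in germ 4 was at 4.89% in WT, with theca markers up to 4.59%. In KO it was at 3.62%, with theca markers up to 3.99%. Free Hes1 RNA from all somatic classes together was not tested. Over the germ clusters, 6 of 7 genes with at least 100 UMIs ranged over 2-fold in WT, where 58.4% of all genes did, and 5 of 6 in KO, where 58.9% did. Rbpj was the exception in each.

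**Figure D4:**
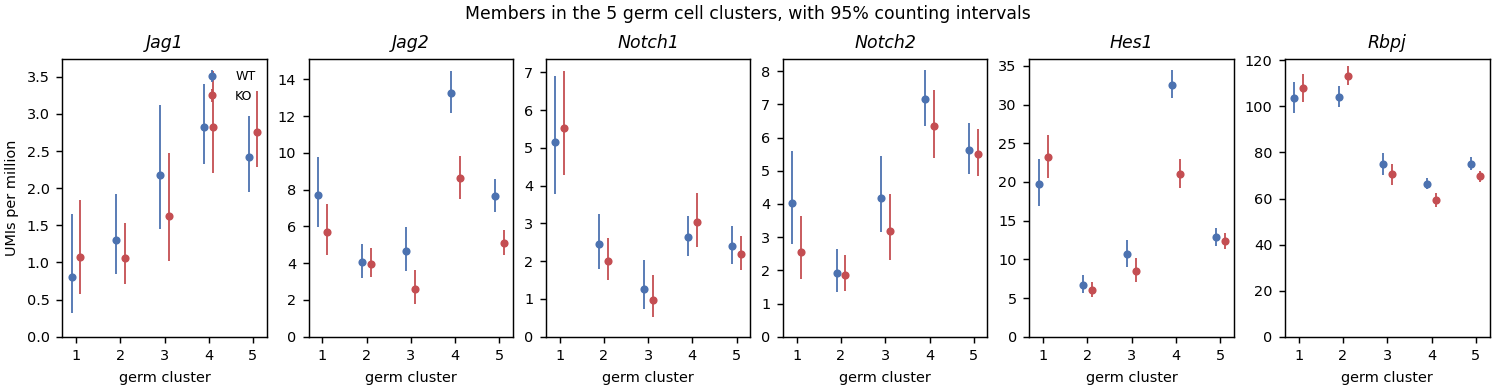
CPM of 6 genes in the 5 germ clusters, in order of falling Stra8 over both libraries, with WT in blue, KO in red and 95% counting intervals. Jag2 peaks in germ 4 in both libraries, with 13.3 in WT and 8.61 in KO, Notch1 in germ 1, and Rbpj is lower in germ 4 than in germ 1 and 2.

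The remaining question was whether loss of GR went with a change in these genes within each cell class. With 1.5-fold as the limit, and counting genes with 100 UMIs or more in the 2 libraries together, 1 of 7 members passed in germ-like cells, where 5.43% of all genes did. In granulosa-like cells 0 of 5 passed beside 2.43% of all genes, in theca-like cells 0 of 6 beside 2.17%, and in epithelia-like cells 0 of 4 beside 2.13%. The member past the limit was Jag2, lower in KO by a log2 of -0.69 (-0.83 to -0.54), which is 62.1% of the WT level. Of the 744 genes past 1.5-fold in germ-like cells, 502 were lower in KO.

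By germ cluster the log2 ratio of Jag2 was -0.63 (-0.86 to -0.39) in germ 4, -0.59 (-0.85 to -0.33) in germ 5 and -0.84 (-1.48 to -0.22) in germ 3, while in germ 1 (-0.43, -0.94 to 0.07) and germ 2 (-0.03, -0.47 to 0.41) the interval included 0. Differences of this ratio between clusters were not tested. Other measures moved between the libraries in the same cells. Sohlh1, a gene of later oocyte development, stood at 36.4 in WT and 9.02 in KO germ 4, Id1 at 632 and 405, and the median depth of germ 4 cells was 16557.5 and 7805 UMIs. Germ 4 made up 32.3% of WT and 26.8% of KO germ-like cells. The part of these measures in the Jag2 difference was not tested.

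**Figure D5:**
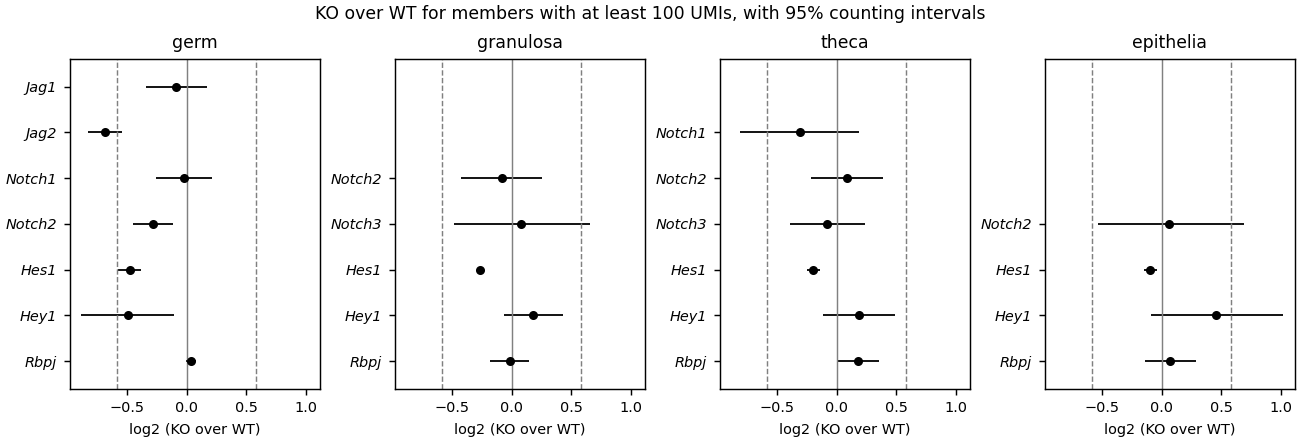
Log2 ratio of KO over WT for each gene with at least 100 UMIs in 4 cell classes, with 95% counting intervals. Dashed lines mark 1.5-fold. Jag2 in germ cells, at -0.69, is the point beyond them, and Hes1 lies below 0 in all 4 classes.

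Hes1 was lower in KO in all 4 large classes, each time by less than 1.5-fold. The log2 ratio was -0.48 (-0.57 to -0.39) in germ-like cells, -0.26 (-0.29 to -0.23) in granulosa-like cells, -0.20 (-0.25 to -0.14) in theca-like cells and -0.09 (-0.15 to -0.04) in epithelia-like cells. The part of free somatic RNA in the germ-like ratio was not tested. By cluster, theca 1, with Itih5 among its leading genes, was lower in KO (-0.37, -0.44 to -0.30), theca 2 had an interval that included 0 (0.04, -0.07 to 0.14) and theca 3 was higher (0.18, 0.02 to 0.34). Granulosa 1, 2 and 3 and epithelia 1 were lower, while the intervals of granulosa 4 (0.05, -0.14 to 0.24) and epithelia 2 (0.11, -0.01 to 0.24) included 0. Among germ clusters, germ 4 was lower (-0.63, -0.78 to -0.48). The intervals of germ 1 (0.23, -0.05 to 0.51), germ 2 (-0.15, -0.49 to 0.20), germ 3 (-0.32, -0.69 to 0.04) and germ 5 (-0.06, -0.24 to 0.12) included 0. Hes1 was also lower in KO endothelia-like (-0.44, -0.61 to -0.26), perivascular-like (-0.42, -0.68 to -0.15) and immune-like cells (-0.71, -1.16 to -0.27), but not beyond counting error in erythroid-like cells (-0.04, -0.72 to 0.68). Germ markers, from cells low in Hes1, stood higher in KO than in WT in these small classes. Their medians were 23.3% against 1.93% in endothelia-like, 8.33% against 4.32% in perivascular-like and 17.0% against 2.12% in immune-like cells. The part of these shares in the Hes1 differences was not tested.

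A list of 15 immediate-early and stress genes, among them Fos, Jun, Egr1 and Ier2, was compared between the libraries too. In granulosa-like cells 12 of 15 were lower in KO (median log2 -0.17, range -0.56 to 0.15, beside -0.02 over all genes tested), and their summed level was 4364 in WT and 3763 in KO. In theca-like cells 13 of 15 were lower (median -0.29 beside 0.01 over all genes), with sums of 2797 and 2330, and in epithelia-like cells 10 of 15 (median -0.15 beside 0.02), with 4936 and 4483. In germ-like cells the list's median was -0.06, as over all genes, 5 intervals lay below 0 and 3 above, and the sums were 108 and 106. These genes respond quickly to stimulation and to tissue handling, and their part in the Hes1 values was not tested.

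The members other than Jag2 and Hes1 stayed within 1.5-fold wherever they reached 100 UMIs. Notch2 in germ-like cells was lower in KO by a log2 of -0.28 (-0.45 to -0.11) and Hey1 by -0.49 (-0.89 to -0.10), while Jag1 (-0.08, -0.34 to 0.17), Notch1 (-0.02, -0.26 to 0.21) and Rbpj (0.04, -0.00 to 0.08) had intervals that included 0. In granulosa-like cells Notch2 (-0.08, -0.42 to 0.26), Notch3 (0.08, -0.48 to 0.66), Hey1 (0.18, -0.07 to 0.43) and Rbpj (-0.02, -0.18 to 0.15) did too. In theca-like cells the ratios were -0.31 (-0.81 to 0.19) for Notch1, 0.09 (-0.21 to 0.39) for Notch2, -0.08 (-0.39 to 0.23) for Notch3 and 0.19 (-0.11 to 0.49) for Hey1, and Rbpj was higher in KO (0.18, 0.00 to 0.36, with the interval above 0). In epithelia-like cells they were 0.07 (-0.54 to 0.69) for Notch2, 0.45 (-0.09 to 1.02) for Hey1 and 0.07 (-0.14 to 0.29) for Rbpj. The median over the members tested was -0.28 in germ-like cells and -0.02 in granulosa-like cells, beside -0.06 and -0.02 over all genes tested.

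The other 40 Notch pathway genes gave the surroundings of these members. Of them, 1 of 34 passed 1.5-fold between KO and WT in germ-like cells, beside 5.43% of all genes, and 1 of 28 in granulosa-like cells, beside 2.43%. In the theca class 0 of 25 passed, beside 2.17%, and in the epithelia class 0 of 24, beside 2.13%. The gene past the limit in germ-like cells was Dlk1, a Delta-like protein without the usual receptor-binding domain. Its level was 11.8 in WT and 7.77 in KO germ-like cells (log2 -0.60, -0.72 to -0.48). Dlk1 stood at 644 and 525 in theca-like cells, so its germ level was 1.83% and 1.48% of that. The gene past the limit in granulosa-like cells was Dll3, at 5.50 in WT and 3.64 in KO (log2 -0.60, -1.16 to -0.04).

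Between germ-like and granulosa-like cells, 22 of 34 of these genes passed 2-fold in each library, beside 61.1% of all genes in WT and 62.1% in KO. Against theca-like cells 17 of 33 in WT and 19 of 33 in KO passed, beside 59.9% and 60.5%. Against epithelia-like cells 18 of 32 and 19 of 34 did, beside 60.4% in each. By role, 1 of the 2 further ligands tested between germ-like and granulosa-like cells was over 2-fold higher in germ cells in each library. This was Dll3, a Delta-like protein known to act within the cell that makes it, at 22.3 in WT and 22.6 in KO germ-like cells. Of the further target genes, Hes5 and Nrarp were over 2-fold higher in germ-like cells than in granulosa-like cells in both libraries, and Dtx1 was over 2-fold lower. The granulosa side rested on 7 WT and 4 KO UMIs for Hes5 and on 2 and 3 for Nrarp. Of the nuclear effectors, the mastermind cofactors Maml1 and Maml3 were over 2-fold lower in germ-like cells in all 6 comparisons, Maml3 standing at 0.967 and 1.08 in germ-like and 44.5 and 38.5 in granulosa-like cells. Of the proteases and their subunits, which release the intracellular part of the receptor, Aph1b and Aph1c were over 2-fold higher in germ-like cells than in granulosa-like cells and Adam10, Psen2, Ncstn and Aph1a over 2-fold lower in both libraries. Of the glycosyltransferases, Pofut1 was higher and Poglut1 lower in germ-like than in granulosa-like cells in both libraries.

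Profiles across 13 clusters in both libraries, 26 profiles in all, were used to name the genes most like 3 members, by Pearson's r of log2(CPM + 1) among 15408 genes. Jag2 was most like Esrp1 (r = 0.965), Nop9 (0.956) and Foxo1 (0.954). Notch2 was most like Endod1 (0.962), Ikbip (0.952) and Vstm4 (0.951). Hes1 was most like Ier2 (0.995), an immediate-early gene, Mettl17 (0.994) and Irf2 (0.992). Between members, r was 0.943 for Hes1 and Hey1, 0.907 for Notch2 and Notch3, -0.845 for Jag2 and Hes1 and -0.724 for Hes1 and Rbpj. The profiles share 2 libraries and the divide between germ and soma, so that these values describe the data and carry no p.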

How the data were processed

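The authors deposited raw UMI counts per gene and cell barcode for each library, made with Cell Ranger 3.0.2 per the file headers. The submitters' processing notes also name Seurat 3.2.3 and mm10. The gene annotation used for counting is not given in the sources used here. Doublets were gated out by light scatter when the cells were sorted, per the study's methods, and no later removal is given in the sources used here. Cells were kept within the limits stated in the study's methods: 1500 to 6500 genes and 5500 to 40000 UMIs in WT, 1200 to 5500 genes and 3000 to 30000 UMIs in KO, and under 10% mitochondrial counts. This kept 9045 of 11430 WT barcodes (79.1%) and 15502 of 17829 KO barcodes (86.9%).

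Counts were scaled to 10000 per cell, and 2000 variable genes without the 10 members and 40 pathway genes gave 30 principal components, 20 neighbours and Leiden clusters at resolution 0.5 (scanpy 1.11.5). Germ and somatic cells were then clustered apart, at 0.4 and 0.8. UMIs, gene number and mitochondrial and ribosomal shares were regressed out in each clustering. When germ and somatic cells were clustered apart, the difference between the WT and KO libraries was regressed out too. A cluster took a name from at least 3 of its class's 8 markers. Somatic clusters also needed at least 50 cells, a mean log2 fold of the class's markers of at least 1, and a lead of 0.5 on the next class. Scrublet called 2.60% of WT and 6.60% of KO cells doublets, which were kept except for mixed clusters. Levels are summed counts scaled to CPM with exact 95% Poisson intervals, ratios carry exact conditional binomial intervals, and the 10 members and lists were chosen with earlier results of these data known. The immediate-early list was chosen after the clusters' values were seen. Genes were named by rule: all members, pathway genes past 1.5-fold between KO and WT, and the 3 genes most like the ligand, receptor and target with the most UMIs. Some genes are not reported here. The other pathway genes and the vascular, Dtx1 and unnamed-cluster values were chosen after their values were seen. The fold counts were run on simulated data with counting error alone, in which 200 genes were changed 3-fold up or down. Changed genes were drawn from those with at least 200 UMIs. Of them, 200 were recovered among 13692 genes for KO over WT in germ-like cells. There 21 of 13492 unchanged genes also passed the limit, and 42 did so in the granulosa, 36 in the theca and 53 in the epithelia class. Recovery of changes near 1.5-fold was not tested. Promoter coordinates are from RefSeq on GRCm38.p6 and gene positions from the GENCODE annotation of GRCm38. Alternatives thinned cells to 3000 UMIs, changed cell limits, doublets, scaling, averaging and clustering, and kept mixed clusters, the last chosen after seeing the data.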

Additional observations from a re-analysis of the deposited data

How the results depend on the processing

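Depth limits these results, since Jag2, Hey2 and Lfng were counted fewer than 10 times in several somatic classes and each genotype is 1 library. No result that passed its limit changed direction under any of the alternatives run. The log2 ratio of Jag2 between KO and WT germ-like cells stayed between -0.71 and -0.64 over 9 alternatives, and that of Hes1 between -0.52 and -0.35. Of 198 alternative values of a member's KO over WT ratio, 185 stayed within the original counting interval, as did 371 of 404 for germ over somatic ratios.

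With each cell thinned to 3000 UMIs, fewer genes reach 100 UMIs. Of 4 members tested, 2 then passed 2-fold for WT germ and granulosa (55.5% of all genes tested did), 3 for WT germ and theca (55.1%), 2 for WT germ and epithelia (55.1%) and 2 for KO germ and epithelia (56.0%). Across germ clusters 3 of 4 ranged over 2-fold in each library, beside 54.4% of all genes in WT and 54.6% in KO. With common limits on cells, 2 of 7 members passed 1.5-fold between KO and WT in germ-like cells, beside 5.50% of all genes, Hey1 (log2 -0.63) joining Jag2. With a 2-fold limit 0 of 7 passed there, beside 1.15%. Without a UMI minimum, 1 of 10 members passed in granulosa-like, 1 in theca-like (Jag2 in each) and 1 in epithelia-like cells (Hey2), from at most 14 UMIs and beside 24.9%, 25.5% and 29.0% of all genes. With a 4-fold limit, 3 of 7 members passed for WT germ and granulosa, beside 36.4% of all genes, and 3 of 7 for WT germ and epithelia, beside 34.0%. Notch2 in germ-like cells moved from a log2 of -0.28 between KO and WT to -0.02 after thinning, and the cause was not tested.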

Other observations

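The vascular cells, which were few, held pathway genes that were near 0 or low in the large classes. Dll4, the Delta ligand of vessel sprouts, stood at 64.7 CPM (95% counting interval 41.5 to 96.3) in the 30 WT and at 79.0 (64.9 to 95.2) in the 136 KO endothelia-like cells, and at 0.0757 and 0.0584 in germ-like cells. Nrarp, which encodes a target gene product that restrains Notch signaling, was at 143 and 118 there, and Mfng, a relative of Lfng, at 197 and 114. Notch4 stood at 40.4 and 24.4 in endothelia-like cells. In perivascular-like cells Heyl, a relative of Hey1, was at 98.5 (62.5 to 148) and 109 (82.3 to 141), beside 5.60 and 5.23 in theca-like cells.

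Dtx1, which encodes a cytoplasmic regulator of NOTCH, was highest in granulosa-like cells among the large classes, at 19.3 (16.7 to 22.1) in WT and 20.7 (18.5 to 23.2) in KO, against 5.96 and 7.83 in epithelia-like, 1.20 and 2.76 in theca-like and 0.278 and 0.225 in germ-like cells. A cluster of 99 cells led by Lypd1 and Pax8 kept no class name, though 7 granulosa markers were raised in it. That cluster held Hes1 at 1561 in WT and 1400 in KO and Hey1 at 27.0 and 34.0, with no Jag1, Jag2 or Notch1 UMI in either library.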
